A study of Homo sapiens with 6 samples.

Results

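The human genome carries 4 alkaline phosphatase genes, ALPP, ALPG, ALPI and ALPL, and all 4 were more abundant in cells labelled as the hepatoma line HepG2 with LAPTM4B knocked down than in control cells. They were taken by gene symbol from a table of 61806 genes, of which these 4 are described here. They were picked because of how they differed between these same libraries, so their differences are given as a description, with no test. Near-identical sequence in ALPP, ALPG and ALPI can divide reads among them, and the extent of that sharing is measured below.

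The cells are labelled HepG2, a human hepatoma line, in a fraction positive for CD133, a surface protein encoded by PROM1. The control group is 3 libraries titled 133G2-NC with the genotype label WT, and the knockdown group is 3 libraries titled 133G2-shLAP whose genotype label is LAPTM4B knockdown. LAPTM4B encodes a membrane protein of lysosomes, and the study's title places it in a loop with the transcriptional co-activator YAP and with stemness of hepatocellular carcinoma. The sources used here do not say what the control construct was, whether the knockdown cells are a pool or 1 clone, or whether the libraries of a group came from separate cultures. The p-values below therefore set the group difference against the spread between libraries of a group, which may be only technical.

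Alkaline phosphatases are zinc metalloenzymes held on the outer face of the plasma membrane by a glycosylphosphatidylinositol (GPI) anchor, where they release inorganic phosphate from phosphate monoesters at alkaline pH. ALPP is the placental enzyme, made by the syncytiotrophoblast. ALPG is the germ cell enzyme, expressed at low level in testis and in germ cell tumours. ALPI is the intestinal enzyme of the enterocyte brush border, where it dephosphorylates bacterial lipopolysaccharide. ALPL is the tissue-nonspecific enzyme of liver, bone and kidney, which hydrolyses pyrophosphate, an inhibitor of mineralisation, and pyridoxal phosphate, and whose loss causes hypophosphatasia. Ectopic placental and germ cell alkaline phosphatases are long known as tumour markers.

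ALPP, ALPG and ALPI lie in a row on the forward strand of chromosome 2, within 82.0 kb. In the coordinates of the deposited table, whose build is named as hg38 in the submitters' processing notes, ALPP spans chr2:232378724-232382889, ALPG chr2:232406844-232410714 and ALPI chr2:232456125-232460753. ALPG starts 24.0 kb after the end of ALPP, and ALPI starts 45.4 kb after the end of ALPG. ALPL lies elsewhere, at chr1:21509397-21578410. The promoter windows of the 3 clustered genes are shown first, and how alike they are is given below them. Each window runs from 250 bases before to 50 bases after the gene's start in RefSeq (GRCh38.p14, forward strand), at chr2:232378501-232378800 for ALPP, chr2:232406594-232406893 for ALPG and chr2:232455903-232456202 for ALPI. Capitals mark runs of at least 10 bases that all 3 windows hold exactly.
ALPP: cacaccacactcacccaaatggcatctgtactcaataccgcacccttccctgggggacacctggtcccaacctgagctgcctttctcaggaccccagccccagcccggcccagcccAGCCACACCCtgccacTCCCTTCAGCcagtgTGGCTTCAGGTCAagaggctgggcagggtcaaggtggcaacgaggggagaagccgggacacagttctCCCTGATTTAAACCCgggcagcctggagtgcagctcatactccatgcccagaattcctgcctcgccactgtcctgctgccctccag
ALPG: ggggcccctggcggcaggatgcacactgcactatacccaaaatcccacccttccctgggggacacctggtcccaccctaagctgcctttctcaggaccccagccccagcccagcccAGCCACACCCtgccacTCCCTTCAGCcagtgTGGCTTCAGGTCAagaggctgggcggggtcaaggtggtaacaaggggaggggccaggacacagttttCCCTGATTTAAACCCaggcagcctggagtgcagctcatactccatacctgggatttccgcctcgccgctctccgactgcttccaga
ALPI: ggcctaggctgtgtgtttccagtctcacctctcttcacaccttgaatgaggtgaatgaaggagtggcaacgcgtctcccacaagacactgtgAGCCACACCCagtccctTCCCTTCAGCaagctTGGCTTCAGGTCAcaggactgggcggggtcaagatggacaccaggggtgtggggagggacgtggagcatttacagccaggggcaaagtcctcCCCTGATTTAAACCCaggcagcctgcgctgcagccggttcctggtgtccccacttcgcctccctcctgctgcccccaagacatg

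The ALPP and ALPG windows were 84.1% identical, ALPP and ALPI 66.5%, and ALPG and ALPI 65.8%. The 3 RefSeq windows of ALPL were 49.3% to 56.3% identical to those of the cluster. The shared runs in capitals covered 48 of the 300 bases. Among 35116 promoter windows of the same length, read on both strands, the run CCCTGATTTAAACCC was found in 3 and the run TGGCTTCAGGTCA also in 3, which are the windows of ALPP, ALPG and ALPI. The shorter runs AGCCACACCC and TCCCTTCAGC were found in 0.299% and 0.137% of windows.

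Searched on both strands, the TATA-like letters TTTAAA sat at -30 from the start in ALPP and ALPG and at -28 in ALPI, inside the longest shared run. They were in none of the 3 ALPL windows and in 12.2% of all windows. The nuclear receptor element AGGTCA was found at -96, -96 and -119 in ALPP, ALPG and ALPI, inside the shared run TGGCTTCAGGTCA, and in no ALPL window (13.8% of all windows). GGAATG, the core read by the TEAD partners of YAP, was in no window of the 4 genes (14.0% of all windows), and neither was the AP-1 element TGANTCA (7.71%). TGACNNNGC, the core of the antioxidant response element, was matched in the windows of ALPP, ALPG and ALPI and in 2 of the 3 ALPL windows (13.3%). In ALPP and ALPG that match overlaps a match to TCAAGG, and in ALPG and ALPI it overlaps the GC box GGGCGG. All 3 clustered windows hold TCAAGG (12.3% of windows), and the GC box was in those of ALPG and ALPI and not in that of ALPP (45.0%). A match of letters is a description of the window and not a bound site.

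How alike the whole transcripts are sets how well reads can be assigned, and their coding parts are compared first. Over aligned coding bases of the GENCODE release 29 transcripts, ALPP and ALPG were 97.8% identical, ALPP and ALPI 89.7%, and ALPL and the clustered genes 64.2% to 64.6%. The translated proteins were 97.0% identical for ALPP and ALPG, 87.1% for ALPP and ALPI, and 56.6% to 58.0% for ALPL and each clustered gene. The 90-base stretch of exon 8 below is the first with the fewest differences between ALPP and ALPI, among stretches aligned without gaps in all 3 clustered genes. There 1 base differs from ALPP in ALPG and 1 in ALPI. It lies at chr2:232380652-232380741 in ALPP, chr2:232408733-232408822 in ALPG and chr2:232458027-232458116 in ALPI (GRCh38, forward strand), and capitals mark bases that differ from ALPP.
ALPP: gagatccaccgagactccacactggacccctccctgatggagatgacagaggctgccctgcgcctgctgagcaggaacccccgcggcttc
ALPG: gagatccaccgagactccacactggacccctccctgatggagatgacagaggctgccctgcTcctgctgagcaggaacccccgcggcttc
ALPI: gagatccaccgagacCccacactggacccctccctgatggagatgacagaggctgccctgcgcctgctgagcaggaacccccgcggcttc

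In exon 10, the stretch where ALPI departs most from ALPP, ALPI differs at 26 of 90 bases while ALPG still differs at 1. It lies at chr2:232381265-232381354 in ALPP, chr2:232409346-232409435 in ALPG and chr2:232458646-232458735 in ALPI, with capitals as before.
ALPP: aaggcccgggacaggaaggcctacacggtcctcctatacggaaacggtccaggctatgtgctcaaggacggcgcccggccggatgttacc
ALPG: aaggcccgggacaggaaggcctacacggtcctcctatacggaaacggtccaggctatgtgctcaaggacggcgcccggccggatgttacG
ALPI: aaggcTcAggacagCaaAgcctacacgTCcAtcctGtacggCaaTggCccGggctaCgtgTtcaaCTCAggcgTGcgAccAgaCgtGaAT

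ALPP and ALPG shared exact runs of up to 339 bases, ALPP and ALPI up to 75 bases, and ALPL shared no run over 16 bases with any of them. Of all 50-base windows of the ALPP transcript, 24.5% occurred exactly in ALPG and 1.30% in ALPI. At 100 bases these shares were 13.2% and 0%. Read from the other side, 29.3% of 50-base windows of ALPG and 1.52% of those of ALPI occurred in ALPP, and no such window of ALPL occurred in any clustered gene. Counting every other annotated gene, on either strand, 32.4% of the 50-base windows of ALPP were shared, and 17.5% of its 100-base windows. Genes outside the family held 13.7% of the 50-base windows of ALPP, most of them in the opposite-strand gene described below (12.6%). A read from the shared windows cannot be assigned by sequence, so part of the ALPG count may stem from ALPP, and the reverse. The sources used here do not say how the authors' counting treated such reads.

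The 6 libraries held 15204269 to 19987318 counts, so that 3 counts, taken as the detection floor, correspond to 0.150 to 0.197 CPM (counts scaled to a fixed library total). LAPTM4B, the targeted gene, fell from 334 ± 13.9 CPM in control to 232 ± 5.05 CPM in knockdown libraries (mean ± SD, n = 3 each; log2 change -0.53, SE 0.04; edgeR's quasi-likelihood test with Benjamini-Hochberg adjustment, adjusted p = 3.25e-12), in the direction its label gives. Of 16354 genes that passed the count filter, 55.9% passed the test at an adjusted p under 0.05, with 28.0% higher and 27.9% lower. Of the genes called, 50.1% were higher with counts, and 60.7% with limma on log2(FPKM + 0.1). The median log2 change of all tested genes was 0.01. Checked against the hepatoma label, ALB, APOA1, APOB and APOH had no count in any library (markers picked out after their values were seen), and AFP, the fetal albumin that marks HepG2, had 0 to 4 counts. These genes go against the label, since HepG2 is known to express them. Of 20 hepatocyte markers, 9 had at most 3 counts in every library and 9 were tested.

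ALPP, the placental enzyme, showed the largest difference of the family. It had 297, 204 and 284 counts in control replicates 1 to 3 and 5399, 5465 and 5427 in knockdown replicates 1 to 3. Scaled for library size, these are 16.5, 13.2 and 14.7 CPM in control and 344, 353 and 325 CPM in knockdown libraries. The groups do not overlap, and the lowest knockdown library lies far above the highest control library. The mean was 23.0-fold higher (log2 difference 4.52, SE 0.06). In bulk RNA, more transcript in each cell and a larger share of cells that make it cannot be told apart.

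ALPI, the intestinal enzyme, had 132, 139 and 168 counts in control and 461, 531 and 565 in knockdown libraries. That is 7.34, 9.01 and 8.68 CPM in control and 29.4, 34.3 and 33.8 CPM in knockdown libraries. The groups are apart here too, but by less than for ALPP. The mean rose from 8.34 ± 0.884 to 32.5 ± 2.72 CPM, a 3.90-fold difference (log2 1.96, SE 0.10).

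ALPL, the tissue-nonspecific enzyme, had 516, 442 and 643 counts in control and 938, 1015 and 913 in knockdown libraries. Its levels were 28.7, 28.6 and 33.2 CPM in control and 59.8, 65.6 and 54.6 CPM in knockdown libraries. It was the most abundant of the 4 in control cells and showed the smallest difference, 1.99-fold (log2 0.99, SE 0.07), again with no overlap between the groups.

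ALPG, the germ cell enzyme, was near the limit of detection. It had 2, 0 and 2 counts in control libraries, under the floor of 3, and 10, 13 and 24 in knockdown libraries, or 0.637, 0.841 and 1.44 CPM. Summed over libraries these are 4 and 47 counts, a ratio of 13.5 after scaling by total counts, with an exact 95% interval of 4.94 to 51.7 that covers counting error only. ALPG passed the count filter through its knockdown libraries alone. The fitted log2 difference was 3.57 (SE 0.66), the least precise of the family.

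**Figure D1:**
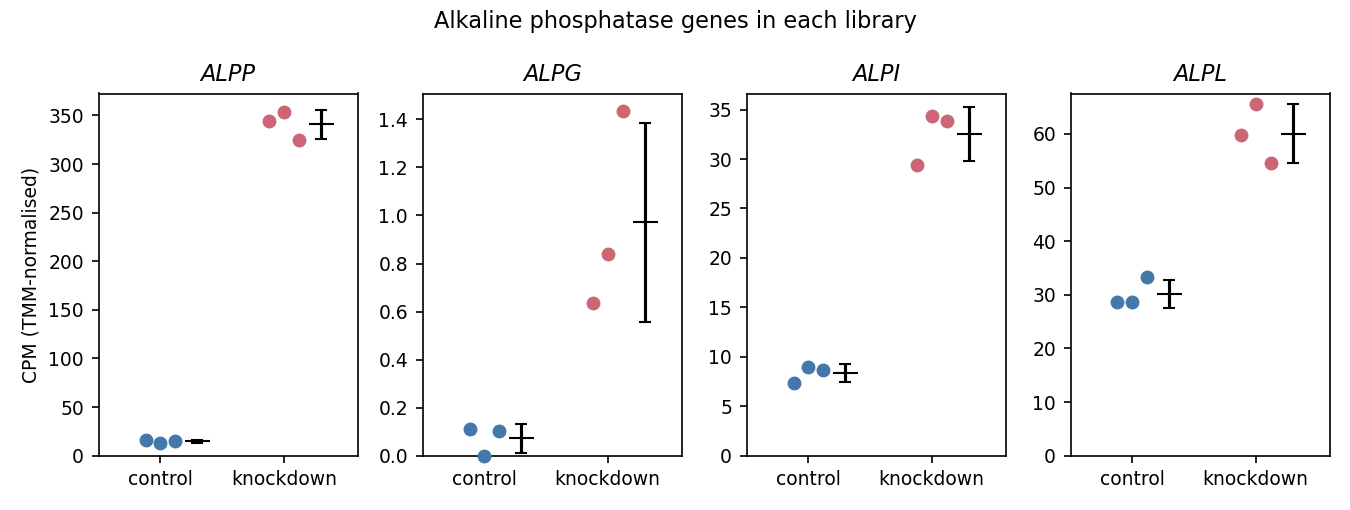
Level of each alkaline phosphatase gene in each library, in CPM on the vertical axis (each panel has its own linear scale from 0), with control libraries on the left and knockdown libraries on the right. Points are libraries and bars are mean ± SD over 3 libraries; in all 4 panels the knockdown points lie above every control point, from 325 to 353 CPM for ALPP and from 0.637 to 1.44 CPM for ALPG.

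All 4 genes passed the count filter, and for all 4 the groups did not overlap, with the knockdown libraries higher. Groups apart in that direction were found for 30.7% of genes tested, and 3.9% of genes were called with a rise of at least 2-fold. Since the 4 genes were chosen on this contrast, nothing is read from their count. By the size of its log2 difference, ALPP stood near the top of the table, with 11 genes larger. ALPI had 149 genes larger and ALPL 672. ALPG is given no place, because its control counts lie under the floor.

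**Figure D2:**
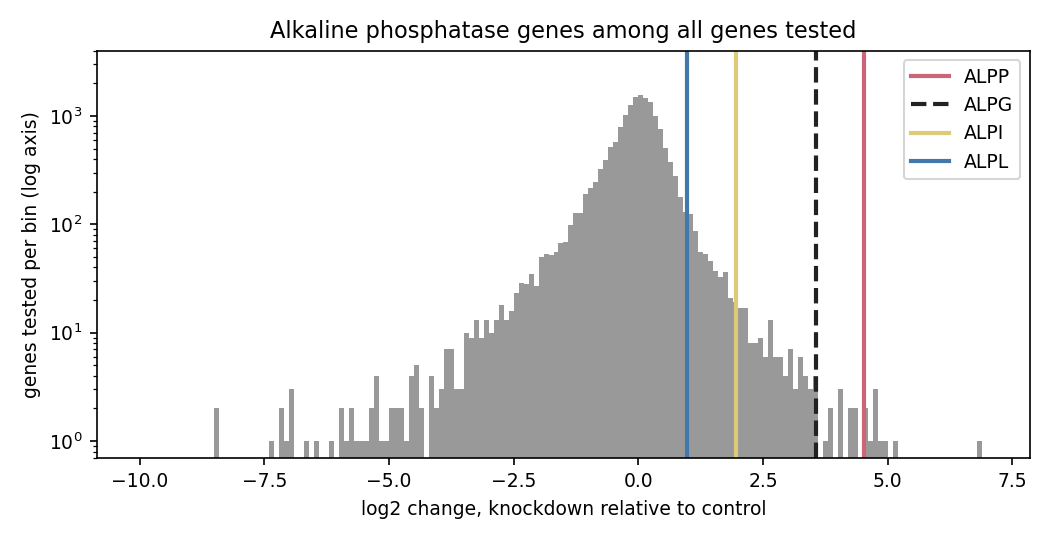
Distribution of the log2 difference, knockdown over control, over 16354 tested genes (number of genes on the vertical axis, log scale), with vertical lines at the 4 alkaline phosphatase genes. The distribution is centred near 0 (median 0.01), ALPL lies on its right flank at 0.99, ALPI at 1.96, and ALPP in the far tail at 4.52. The line of ALPG marks its fitted value of 3.57 and gives it no place, because its control counts lie under the floor.

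Per length, in FPKM as the authors deposited it, the order of the 4 genes differed between groups. In each control library ALPL was highest, followed by ALPP, ALPI and ALPG. ALPL stood at 9.42, 9.47 and 10.80 FPKM, ALPP at 5.63, 4.54 and 4.95, ALPI at 2.14, 2.65 and 2.51, and ALPG at 0.04, 0.00 and 0.04. In each knockdown library ALPP was highest, at 121.83, 125.28 and 116.02 FPKM, followed by ALPL at 20.38, 22.40 and 18.79, ALPI at 8.91, 10.42 and 10.34, and ALPG at 0.26, 0.34 and 0.59. No neighbours in either order overlapped between libraries of a group. ALPL exceeded ALPP by 1.67 to 2.18 times in control libraries, and ALPP exceeded ALPL by 5.59 to 6.17 times in knockdown libraries.

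The family's summed level went from 17.4 ± 0.833 FPKM in control to 152 ± 6.36 FPKM in knockdown libraries (n = 3 each). ALPP made up 27.0% to 32.7% of that sum in control and 79.1% to 80.5% in knockdown libraries. The share of ALPL went the other way, from 54.7% to 59.0% in control to 12.9% to 14.1% in knockdown libraries, although its own level was higher there. ALPI went from 12.4% to 15.9% of the sum to 5.89% to 7.09%. Ranked by FPKM among all 61806 genes, ALPP stood between places 6737 and 7657 in control and between 191 and 209 in knockdown libraries.

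**Figure D3:**
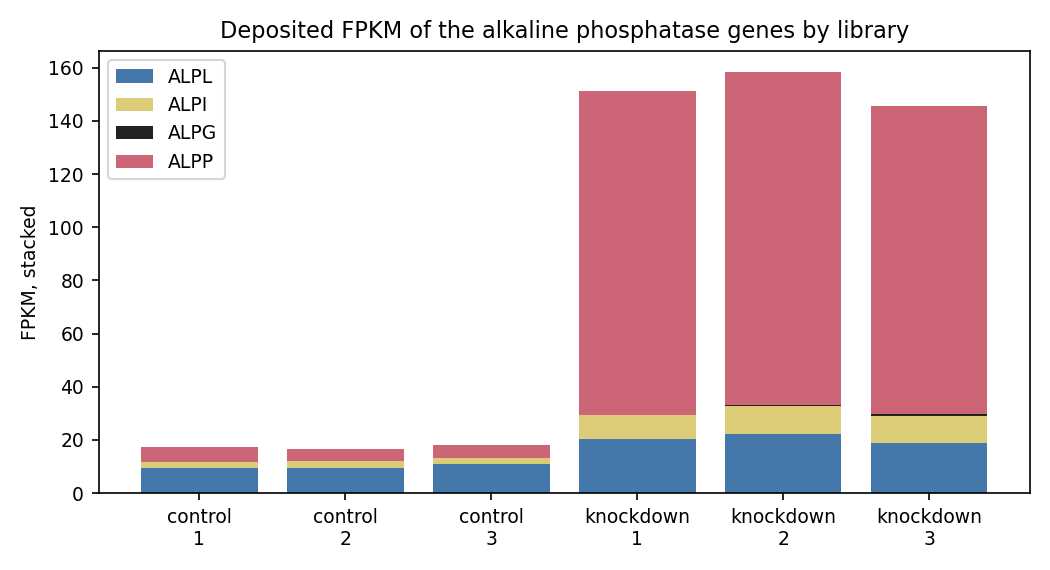
Stacked FPKM of the 4 alkaline phosphatase genes in each library, with FPKM on the vertical axis starting at 0 and 1 bar per library. Control bars reach 16.7 to 18.3 FPKM and are mostly ALPL; knockdown bars reach 146 to 158 FPKM and are mostly ALPP.

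Because the clustered genes share sequence, the ratio of their counts within a library was examined. ALPI had 44.4 to 68.1 counts per 100 ALPP counts in control and 8.54 to 10.4 in knockdown libraries. ALPG had 0 to 0.704 counts per 100 ALPP counts in control and 0.185 to 0.442 in knockdown libraries, ranges that overlap. How many of the ALPG or ALPI counts came from ALPP transcripts was not tested. Summing ALPP, ALPG and ALPI, which does not depend on how reads were divided among them, gave 24.0, 22.2 and 23.5 CPM in control and 374, 389 and 360 CPM in knockdown libraries (log2 difference 4.01, SE 0.05). Shared reads that the counting may have dropped would be missing from this sum too, and their number was not tested. ALPL has no such near copy, and its count does not depend on that division.

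A gene annotated on the opposite strand, ENSG00000224516, overlaps ALPP, with 555 of its 680 exonic bases inside ALPP exons. It had no count in the control libraries and 4, 8 and 2 counts in the knockdown libraries. The sources used here do not say whether counting used strand, and without it reads of this gene and of ALPP cannot be told apart. The share of ALPP counts that stem from it was not tested.

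No tested gene around the cluster rose with it. Within 250 kb of the ALPP, ALPG and ALPI cluster lie 21 other genes, of which 7 passed the count filter. Of the 7, 0 rose and 2 fell (edgeR's quasi-likelihood test with Benjamini-Hochberg adjustment over all genes), against 28.0% and 27.9% of all tested genes. EFHD1, a calcium-binding protein of mitochondria, fell from 27.3 ± 0.588 to 17.7 ± 2.61 CPM (n = 3 each; log2 change -0.63, edgeR adjusted p = 1.65e-06). TIGD1, a gene derived from a transposable element, fell from 10.9 ± 0.760 to 8.20 ± 0.518 CPM (n = 3 each; log2 change -0.41, edgeR adjusted p = 5.81e-03), a call lost with limma on FPKM (adjusted p = 0.0756 with a pseudocount of 0.1). GIGYF2, EIF4E2, DIS3L2, NRBF2P6 and the unnamed gene ENSG00000237126 did not pass. The highest of these, the pseudogene NRBF2P6, had 6 to 9 counts in control and 10 to 14 in knockdown libraries (log2 0.71, SE 0.45).

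Around ALPL, 18 other genes lie within 250 kb and 7 passed the filter, of which 2 rose, none fell and 5 did not pass. ECE1, which processes endothelin, rose from 158 ± 5.04 to 197 ± 0.430 CPM (n = 3 each; log2 change 0.32, edgeR adjusted p = 6.20e-08). HSPG2, which encodes perlecan of the basement membrane, rose from 130 ± 4.51 to 157 ± 2.12 CPM (n = 3 each; log2 change 0.27, edgeR adjusted p = 2.03e-06). RAP1GAP, USP48, NBPF3, NBPF2P and LDLRAD2 did not pass.

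**Figure D4:**
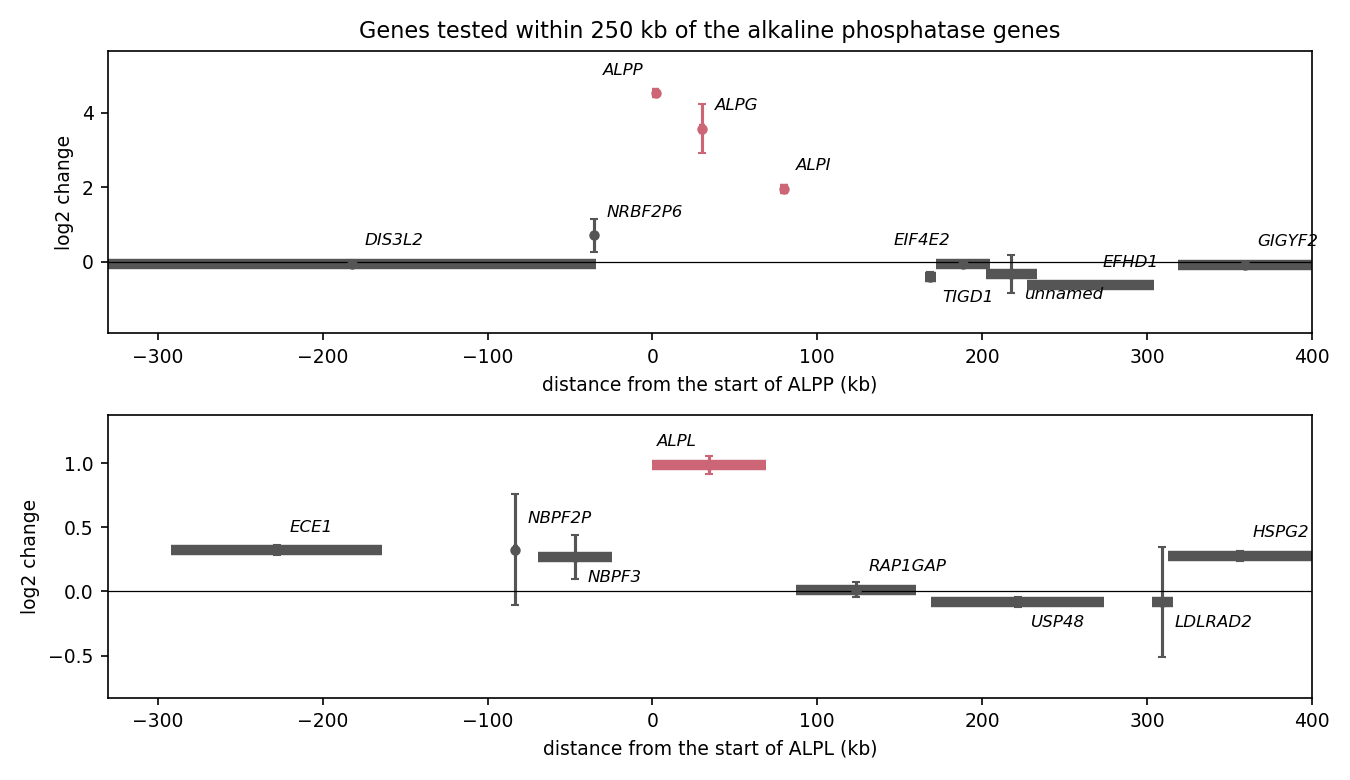
Log2 difference (vertical axis, knockdown over control) of tested genes against distance from the start of ALPP in the upper panel and of ALPL in the lower panel (horizontal axis, kb); bars span each gene, are clipped at the panel edges, and error bars are SE. ALPP, ALPG and ALPI stand at 4.52, 3.57 and 1.96 among neighbours between -0.63 and 0.71, and ALPL stands at 0.99 among neighbours between -0.08 and 0.32.

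Genes that act with alkaline phosphatases were then counted by role. For each list the share that passed the test stands against 55.9% of all tested genes, with 28.0% higher and 27.9% lower. The median log2 change stands against 0.01. All lists were drawn up with earlier results of these data known, so their counts are a description. Genes for synthesis and attachment of the GPI anchor had a median near 0. Of 30 tested genes of 31, 7 rose and 5 fell, 18 missed the threshold, and the median log2 change was -0.01. GPAA1, a subunit of the transamidase that attaches the anchor, rose from 56.9 ± 4.46 to 72.6 ± 4.09 CPM (n = 3 each; log2 0.35, edgeR adjusted p = 1.29e-05). PIGW, an acyltransferase of anchor assembly, rose from 25.2 ± 0.674 to 32.6 ± 1.78 CPM (n = 3 each; log2 0.37, edgeR adjusted p = 8.46e-05). PIGL, the enzyme of the second step of the pathway, fell from 10.2 ± 2.0 to 6.03 ± 0.245 CPM (n = 3 each; log2 -0.75, edgeR adjusted p = 1.14e-04). PIGA, part of the enzyme of the first step, had 39.8 ± 1.48 and 41.2 ± 0.854 CPM (n = 3 each; edgeR adjusted p = 0.504).

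Most tested genes on the list of other GPI-anchored surface proteins were lower, unlike the alkaline phosphatases. Of 36 tested genes of 58, 22 fell and 5 rose, 9 missed the threshold, and the median log2 change was -0.37. The share called was 75.0%, against 55.9% of all tested genes, of which 27.9% fell and 28.0% rose. Since the list was not blind to these data, that difference is a description. CD55, an inhibitor of complement, fell from 3119 ± 65.3 to 1476 ± 29.7 CPM (n = 3 each; log2 -1.08, edgeR adjusted p = 7.56e-21). PLAUR, the urokinase receptor, fell from 108 ± 2.68 to 50.4 ± 4.23 CPM (n = 3 each; log2 -1.10, edgeR adjusted p = 1.43e-15), and CDH13, a cadherin without a cytoplasmic tail, fell by 1.06 on the log2 scale. NT5E, the 5'-nucleotidase CD73, which like alkaline phosphatase releases phosphate from AMP, fell from 636 ± 10.7 to 85.5 ± 4.81 CPM (n = 3 each; log2 -2.89, edgeR adjusted p = 1.19e-27).

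Zinc enters alkaline phosphatases in the early secretory pathway through SLC30A5 with SLC30A6 and through SLC30A7. SLC30A5 rose from 57.7 ± 3.45 to 76.9 ± 2.17 CPM (n = 3 each; log2 0.41, edgeR adjusted p = 2.09e-07). SLC30A6 had 54.9 ± 1.72 and 59.6 ± 2.56 CPM (n = 3 each; edgeR adjusted p = 0.0705), and SLC30A7 had 54.3 ± 2.17 and 53.5 ± 2.66 CPM (n = 3 each; edgeR adjusted p = 0.778). Over all zinc transporters and metallothioneins, 22 of 34 genes were tested, and 8 rose, 8 fell and 6 missed the threshold (median 0.09). SLC39A14, a zinc importer, rose from 240 ± 12.7 to 332 ± 8.29 CPM, and SLC30A1, the zinc exporter, from 128 ± 3.37 to 176 ± 5.80 CPM (n = 3 each; edgeR adjusted p = 8.24e-11 and 2.09e-10). The metallothioneins, which bind zinc in the cytosol, were represented among the 4 leading genes by MT2A and MT1X. MT2A fell from 95.8 ± 9.63 to 50.9 ± 3.25 CPM and MT1X from 10.7 ± 0.229 to 4.13 ± 0.219 CPM (n = 3 each; edgeR adjusted p = 1.49e-12 and 3.35e-09).

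Among genes that handle phosphate, pyrophosphate and vitamin B6 phosphate, 17 of 26 were tested, and 8 rose, 4 fell and 5 missed the threshold (median -0.01). PDXK, the kinase that makes pyridoxal phosphate, rose from 127 ± 3.44 to 174 ± 9.99 CPM (n = 3 each; edgeR adjusted p = 1.51e-09). ENPP1, which makes the pyrophosphate that ALPL removes, rose from 14.5 ± 0.774 to 19.5 ± 1.05 CPM (n = 3 each; edgeR adjusted p = 2.88e-04). The phosphate carrier SLC34A3 rose from 3.13 ± 0.819 to 7.65 ± 0.202 CPM, and the ectonucleotidase ENTPD1 fell from 15.8 ± 0.848 to 9.41 ± 0.221 CPM (n = 3 each; edgeR adjusted p = 7.87e-07 and 1.04e-06). ANKH, which exports pyrophosphate or its precursor, rose from 168 ± 4.26 to 182 ± 5.92 CPM (n = 3 each; log2 0.11, edgeR adjusted p = 0.0164), but DESeq2 did not call it (adjusted p = 0.0616). The edgeR call was also lost without control replicate 1, control replicate 2 or knockdown replicate 1 (edgeR adjusted p = 0.0516, 0.123 and 0.104). SLC20A1, the phosphate carrier with the most reads among those named, did not pass (252 ± 7.81 and 250 ± 3.67 CPM, n = 3 each; edgeR adjusted p = 0.856). PHOSPHO1, the phosphatase that acts with ALPL in mineralising vesicles, had 4 to 12 counts per library and was not tested.

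The other phosphomonoesterases were mixed, with 19 of 24 tested, 7 higher, 5 lower and 7 not passing (median 0.07). PSPH, the last enzyme of serine synthesis, rose from 19.3 ± 1.32 to 41.8 ± 2.29 CPM (n = 3 each; log2 1.12, edgeR adjusted p = 9.66e-13). NT5C2, a cytosolic nucleotidase, rose by a log2 change of 0.42. ACP3, the prostatic acid phosphatase, fell from 26.8 ± 1.64 to 8.70 ± 0.886 CPM (n = 3 each; log2 -1.62, edgeR adjusted p = 1.62e-13). PLPP3, which dephosphorylates lipids, fell from 30.2 ± 2.67 to 16.9 ± 1.39 CPM (n = 3 each; log2 -0.84, edgeR adjusted p = 5.73e-09).

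**Figure D5:**
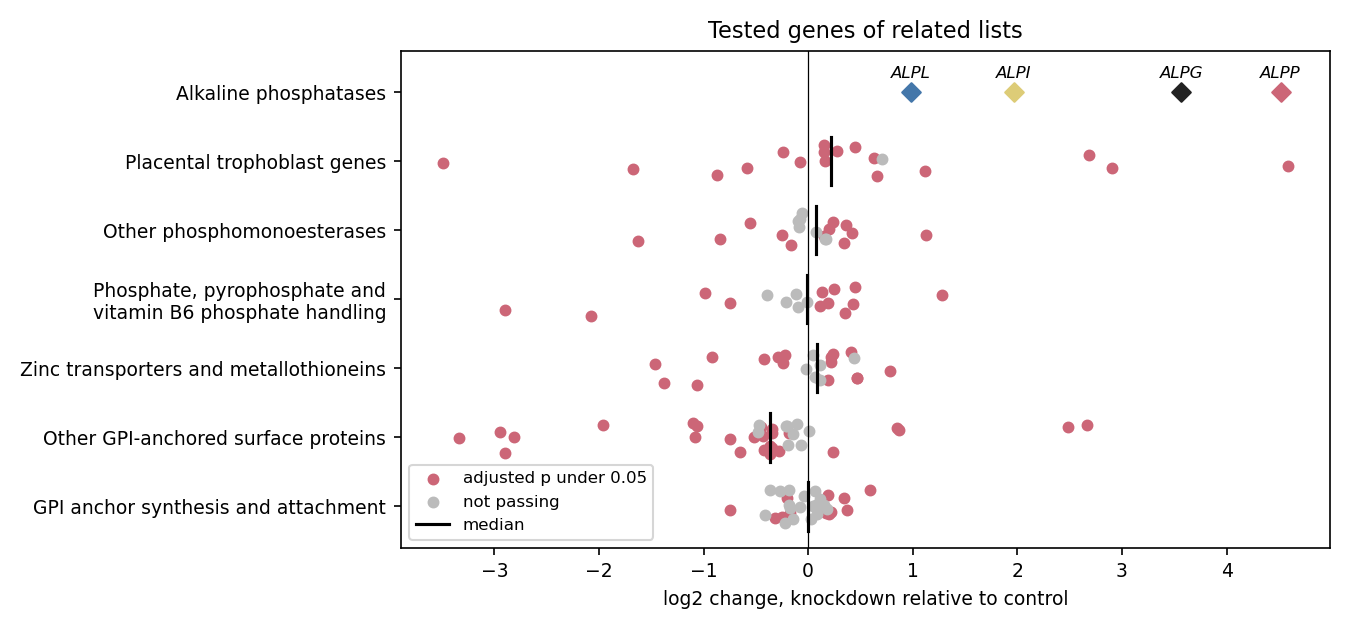
Log2 change (horizontal axis, knockdown over control) of each tested gene in 6 gene lists (rows), with 1 point per gene, red where the adjusted p was under 0.05 and grey where it was not, and the list's median as a vertical line. Diamonds in the top row are the 4 alkaline phosphatases, for which no test result is given. GPI-anchored surface proteins sit mostly left of 0 (median -0.37), while the GPI anchor synthesis genes gather at 0 (median -0.01).

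Each enzyme is named for a tissue, and the genes of those tissues were counted beside it. For ALPP, 52 placental trophoblast genes were listed, of which 25 had at most 3 counts in every library and 18 were tested. Of the 18, 11 rose, 6 fell and 1 did not pass (median 0.22). The share that passed was thus 94.4%, against 55.9% of all tested genes, of which 28.0% rose and 27.9% fell. The list was drawn up with earlier results of these data known, so nothing is read from that share. PSG4, a pregnancy-specific glycoprotein, rose from 0.421 ± 0.0992 to 10.2 ± 1.37 CPM (n = 3 each; log2 4.58, edgeR adjusted p = 6.77e-15), and the epithelial keratin KRT7 from 38.8 ± 0.601 to 251 ± 3.32 CPM (n = 3 each; log2 2.69, edgeR adjusted p = 2.44e-26). PSG4 passed the count filter through its knockdown libraries alone, so its direction was set by the filter. CGA, the shared subunit of chorionic gonadotropin and the pituitary glycoprotein hormones, fell from 258 ± 9.57 to 23.0 ± 1.14 CPM (n = 3 each; log2 -3.49, edgeR adjusted p = 2.65e-27). ERVV-2, a retroviral envelope gene expressed in placenta, fell from 20.6 ± 1.25 to 6.45 ± 0.808 CPM (n = 3 each; log2 -1.68, edgeR adjusted p = 1.25e-12). GCM1, the transcription factor of syncytiotrophoblast differentiation, had 0 to 7 counts per library and was not tested. The placental list thus moved in both directions, and its summed level was 1655 to 1690 CPM in control and 1623 to 1658 CPM in knockdown libraries. Within that sum the fall of CGA and the rise of KRT7 run in opposite directions, so a similar sum does not mean unchanged genes.

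For ALPG, 5 of 18 germ cell genes were tested, with 1 higher, 2 lower and 2 not passing (median -0.02). The share called was 60.0%, near the 55.9% of all tested genes. POU5F1, the pluripotency factor, fell from 7.57 ± 1.45 to 3.58 ± 0.495 CPM (n = 3 each; log2 -1.07, edgeR adjusted p = 1.18e-05). PRDM1, which specifies primordial germ cells, rose from 26.9 ± 0.358 to 33.1 ± 0.997 CPM (n = 3 each; log2 0.30, edgeR adjusted p = 5.56e-04). TFAP2C fell by 0.24 on the log2 scale, but its groups overlap and DESeq2 did not call it (edgeR adjusted p = 8.62e-03, DESeq2 adjusted p = 0.0519).

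For ALPI, 7 of 27 brush border genes were tested, with 1 higher, 2 lower and 4 not passing (median -0.09). That is 42.9% called, under the 55.9% of all tested genes. ANPEP, the aminopeptidase N of the brush border, fell from 366 ± 14.5 to 182 ± 10.7 CPM (n = 3 each; log2 -1.01, edgeR adjusted p = 3.12e-17). MYO7B, a motor of the microvillus tip, rose from 0.641 ± 0.138 to 1.71 ± 0.414 CPM, and its partner CDHR5 fell from 1.54 ± 0.351 to 0.579 ± 0.259 CPM (n = 3 each; edgeR adjusted p = 1.96e-03 and 4.09e-03). CDX2, the intestinal master regulator, had no count in any library.

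For ALPL, 10 of 25 mineralisation genes were tested, with 2 higher, 2 lower and 6 not passing (median 0.05). RUNX2, the osteoblast master regulator, fell from 17.1 ± 1.15 to 4.14 ± 0.848 CPM (n = 3 each; log2 -2.05, edgeR adjusted p = 7.87e-13). The homeobox genes MSX2 and MSX1 rose by log2 changes of 0.63 and 0.47 (edgeR adjusted p = 3.71e-03 and 0.0120), the latter not called by DESeq2 (adjusted p = 0.0697). In liver ALPL is the main alkaline phosphatase, and of the 20 hepatocyte markers 9 were tested, with 1 higher, 6 lower and 2 not passing (median -1.25). Of all tested genes 28.0% were higher and 27.9% lower. Among the lower markers, SERPINA1 and FOXA2 passed the count filter through their control libraries alone. Their direction was thus set by the filter, and they weigh on the count and the median. FGB fell from 12.1 ± 0.711 to 5.45 ± 0.106 CPM, SERPINA1 from 2.46 ± 0.686 to 0.185 ± 0.161 CPM, and FOXA1 rose from 4.07 ± 0.517 to 9.51 ± 0.116 CPM (n = 3 each; edgeR adjusted p = 2.03e-08, 4.93e-07 and 8.51e-08).

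Alkaline phosphatase is also made by neutrophils, bile duct, endothelial and stromal cells, whose markers were counted in the same libraries. Of the 12 leukocyte markers 9 had at most 3 counts in every library, PTPRC among them with 0 to 3 counts, and their summed level was 1.84 to 2.27 CPM in control and 1.23 to 1.68 CPM in knockdown libraries. The 10 stromal markers summed to 10.4 to 13.5 CPM in control and 17.3 to 21.4 CPM in knockdown libraries. Of 3 tested genes 2 were higher and 0 lower, against 28.0% and 27.9% of all tested genes. The 2 higher genes passed the count filter through their knockdown libraries alone. Their direction was thus set by the filter, and nothing is read from their count. They were PDGFRB, at 0.275 ± 0.127 CPM in control and 3.13 ± 0.272 CPM in knockdown libraries, and FAP, at 0.263 ± 0.224 and 2.01 ± 0.333 CPM (n = 3 each; edgeR adjusted p = 1.52e-08 and 3.49e-06). The 8 endothelial markers summed to 52.0 to 56.0 CPM in control and 60.7 to 67.1 CPM in knockdown libraries, most of it ESAM, while PECAM1 had 18 to 41 counts in control and 3 in each knockdown library. The 10 bile duct markers summed to 357 to 382 CPM in control and 643 to 654 CPM in knockdown libraries, with KRT7 and SLC4A2 higher and SOX9 and EPCAM lower. Of the 6 bile duct markers tested 66.7% were called, against 55.9% of all tested genes. The part of these marker levels in the alkaline phosphatase differences was not tested.

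The genes whose pattern lay closest to each enzyme were taken by the root mean square distance of log2 CPM, centred on each gene's mean, over the 6 libraries. A prior count of 2 was added to the counts for this purpose, which shrinks the differences of low genes and so their distances. This is a description, since any gene with a similar shrunken difference between the groups lies close, and the 4 enzymes themselves were left out of the search. For ALPP the closest were PSG4 at a distance of 0.257 log2 units, ALPK2 at 0.272 and CPA4 at 0.346, followed by SEMA5A and ABCA13. For ALPG, at 0 to 24 counts per library, the prior count sets much of the distance, so no close gene is given. For ALPI they were ID3 at 0.105, GCLM at 0.106 and CRISPLD2 at 0.113. For ALPL they were LRRC7 at 0.0621 and GPX8 at 0.0681.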

How the data were processed

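Per the labels' protocols, total RNA was isolated in Trizol and went into Illumina TruSeq libraries. The authors deposited 1 table with, per gene and library, a read count and an FPKM value, and with the exonic length and pathway annotation. The build is hg38, per the submitters' processing notes, and the aligner, counter, strand setting and treatment of multi-mapping reads were not given in any source used. The 4 genes, the gene lists and the alternatives were chosen with earlier results of these data known.

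The deposited counts of knockdown and control libraries were compared in R 4.3.3 by the quasi-likelihood F test of edgeR 4.0.16, after TMM scaling and filterByExpr, over all 16354 genes that passed the filter, with Benjamini-Hochberg adjustment at 0.05, after a test of the script on simulated data. CPM is the count scaled by the library's TMM-adjusted total. Named genes are the targeted gene, genes fixed by role, and up to 4 genes of each list with the smallest p among those that passed, and tested genes within 250 kb. The closest patterns are the 5 nearest genes for ALPP and up to 3 for the others, and some genes that these rules name are not reported here. Intervals and the floor of 3 counts cover counting error only. No library columns were identical, and replicates of a group differed by more than sampling noise. Alternatives were DESeq2 1.42.0, RLE scaling, no count filter, limma 3.58.1 on log2(FPKM + pseudocount) where a gene's mean reached 1 FPKM, a replicate block, each library left out, and the 3 near copies summed. Transcript sequences are GENCODE release 29, and promoter windows are RefSeq GRCh38.p14.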

Additional observations from a re-analysis of the deposited data

How the results depend on the processing

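The direction of each of the 4 alkaline phosphatase differences was the same in every alternative that gave a value. With 1 library left out, the log2 difference ran from 4.44 to 4.59 for ALPP, 3.10 to 3.92 for ALPG, 1.87 to 2.03 for ALPI and 0.92 to 1.07 for ALPL. With limma on log2(FPKM + 1), which understates the change of low genes, it was 4.34 for ALPP and 1.67 for ALPI, and with ALPP, ALPG and ALPI summed it was 4.01. ALPG gave no value with limma, since its mean was under 1 FPKM. Its depth of 0 to 24 counts per library limits its precision.

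The replicate numbers did not pair the libraries (correlations of same-numbered deviations 0.139, -0.0639 and -0.0754). Control replicate 2 correlated best with knockdown replicate 3 (0.130) and control replicate 3 with knockdown replicate 2 (0.122), so only replicate 1 correlated best with its own number. These best matches use each library once, and every other pair correlated negatively. Whether the libraries were paired in that other order was not tested. With the replicate block, which followed the replicate numbers, 4441 genes were higher and 4408 lower, and the 4 log2 differences were 4.52, 3.58, 1.96 and 0.98.

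Of 360 counts of genes over lists and settings, 324 stayed within 1.5 times the main count. With limma on log2(FPKM + 0.1) and log2(FPKM + 1), 2915 and 2925 genes were lower, against 4559 in the main test, and fewer genes were tested. In both FPKM fits, lower genes numbered 3 for GPI anchor synthesis, 1 for phosphate handling, 3 for phosphomonoesterases, 1 for germ cell genes, 1 for brush border genes, 1 for mineralisation, 1 for hepatocyte markers and 0 for endothelial markers. Higher genes in both FPKM fits numbered 3 for GPI-anchored proteins, 0 for brush border genes and 0 for stromal markers. Genes with a mean under 1 FPKM were not tested in these fits. Among them were PDGFRB, FAP, MYO7B, PECAM1, SERPINA1 and FOXA2, so their calls are absent there and were not lost in a test. DESeq2 gave 3 lower phosphomonoesterases, 1 lower germ cell gene and 1 higher mineralisation gene. With no count filter 1 leukocyte marker was lower. With 1 library left out, lower phosphomonoesterases ran from 3 to 5, lower germ cell genes from 1 to 2, lower brush border genes from 2 to 4 and higher mineralisation genes from 1 to 3; the cause was not tested. Of 934 values for 81 named genes, 913 kept their call, 15 lost it, 6 gained one and 0 reversed.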

Other observations

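The deposited annotation gives the orthology term for alkaline phosphatase to exactly 4 genes, ALPG, ALPI, ALPL and ALPP, and places them in thiamine metabolism and folate biosynthesis. These pathways were looked at after the annotation was seen, and no test was made. Of 29 other genes of thiamine metabolism 13 passed the count filter, with a median log2 change of -0.14. Of 44 other genes of folate biosynthesis 19 passed, with a median of 0.14.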
